A study of Oryza sativa with 5 samples.

Results

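The outermost megabase of the rice chromosomes was examined in maps of 2 histone marks from male meiocytes, the cells that undergo meiosis in the anther, taken at early prophase I. A peak was taken as belonging to a chromosome end when its midpoint lay within 1 Mb of the start of a chromosome, called its first end, or within 1 Mb of the last base that any peak reached, called its last end. The first ends of chromosomes 11 and 12, which carry a duplicated segment in common, were left out, so that 22 of 24 ends remained, 10 of them first and 12 of them last ends. They held 7673 of the 96576 peaks of all lists, or 7.95% of the peaks on 5.90% of the 372.8 Mb spanned. By library these were 1379 and 1408 peaks for replicates 1 and 2 of H3K27me3, and 2459 and 2427 peaks for replicates 1 and 2 of H3K4me3.

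Chromatin from small numbers of cells was cut with micrococcal nuclease, sonicated and precipitated with an antibody against either mark, and each of the 4 precipitated libraries came as its own list of called peaks. The labels describe the 2 libraries of each mark as biological replicates and name no cultivar, genotype or treatment, and all libraries share the same cell type and stage. An input library belongs to the series and was not analysed here. Depth in reads is unknown, so that every value below describes called peaks. No source used here gives the genome build, so positions are those of the lists, and no position was assigned to a gene and no sequence is shown.

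H3K27me3, histone H3 trimethylated at lysine 27, is written by Polycomb repressive complex 2 and marks genes that are kept silent, many of them regulators of development. H3K4me3, trimethylation at lysine 4 of the same histone, sits at the starts of active genes. In early meiotic prophase the telomeres gather on the nuclear envelope while homologous chromosomes pair, and in many cereals the distal parts of chromosomes are rich in genes. A stretch with both marks in a population of cells can hold them on the same nucleosomes or in different cells, and peak lists do not tell these apart.

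Both marks were somewhat denser at the ends than over the 1 to 5 Mb inward of the same ends. H3K27me3 had 62.7 and 64.0 peaks per Mb in the outer megabase (replicates 1 and 2), against 58.5 and 59.1 per Mb inward. H3K4me3 had 111.8 and 110.3 peaks per Mb in the outer megabase, against 105.4 and 97.1 per Mb inward. Both libraries of each mark were therefore higher at the ends, by a mean of 1.08-fold for H3K27me3 (log2 0.11 ± 0.011) and 1.10-fold for H3K4me3 (log2 0.13 ± 0.070, SD, n = 2 libraries each). More than 5 Mb from both ends the densities were lower than in either segment, at 49.6 and 48.0 per Mb for H3K27me3 and 68.4 and 61.8 per Mb for H3K4me3. Exchanging outer and inward values within each library gave an exact permutation p of 0.50 for either mark (two-sided), the smallest that 2 libraries allow. The same holds for each comparison of outer with inward values below in which both libraries of a mark moved the same way. The size of the H3K27me3 value rested on the segments chosen: the log2 ratio was 0.016 against 1 to 3 Mb, 0.051 with all 24 ends, 0.23 for the outer 0.5 Mb and 0.40 for peaks whose −log10 q reached 5. The bin at 1 to 1.5 Mb alone held 68.7 and 71.4 H3K27me3 peaks per Mb, more than the outer megabase, and without the first end of chromosome 7 the ratio was 0.065.

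The design of 2 against 2 libraries cannot show a difference between the marks in this respect, since the smallest possible p is 0.33. The log2 ratio of outer to inward density was 0.10 and 0.12 in the H3K27me3 libraries and 0.085 and 0.18 in the H3K4me3 libraries, so that the values of H3K27me3 lay between those of H3K4me3. The difference was −0.027 (exact permutation test of 2 against 2 libraries, two-sided, p = 1). Its sign turned with the segments and the peaks used. It was 0.25 for peaks whose −log10 q reached 5, with both H3K27me3 libraries above both H3K4me3 libraries, and −0.29 against the rest of the chromosome, with both below (exact permutation p = 0.33 each).

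The ends differed widely among themselves, by an SD of 24.1 peaks per Mb for H3K27me3 and 33.9 for H3K4me3. Their inward stretches had an SD of 16.0 and 34.0, as means per Mb over the whole of 1 to 5 Mb. A longer stretch averages out local variation, so the spreads of outer and inward values cannot be compared directly. Over the 22 ends the mean of the 2 libraries ran from 7 to 121.5 H3K27me3 peaks per Mb with a median of 62.25, and from 30 to 149.5 H3K4me3 peaks with a median of 121.5. Replicates gave close counts, with Pearson's r of 0.948 for H3K27me3 and 0.987 for H3K4me3 over the 22 ends, which share chromosome and genome. The largest fold between replicates of a mark was 1.8 for H3K27me3, at the first end of chromosome 9 with 9 and 5 peaks, and 1.16 for H3K4me3. The H3K27me3 peaks were at a higher density than inward in both libraries at 10 of 22 ends and lower in both at 8, whereas H3K4me3 was higher in both at 12 and lower in both at 5.

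**Figure D1:**
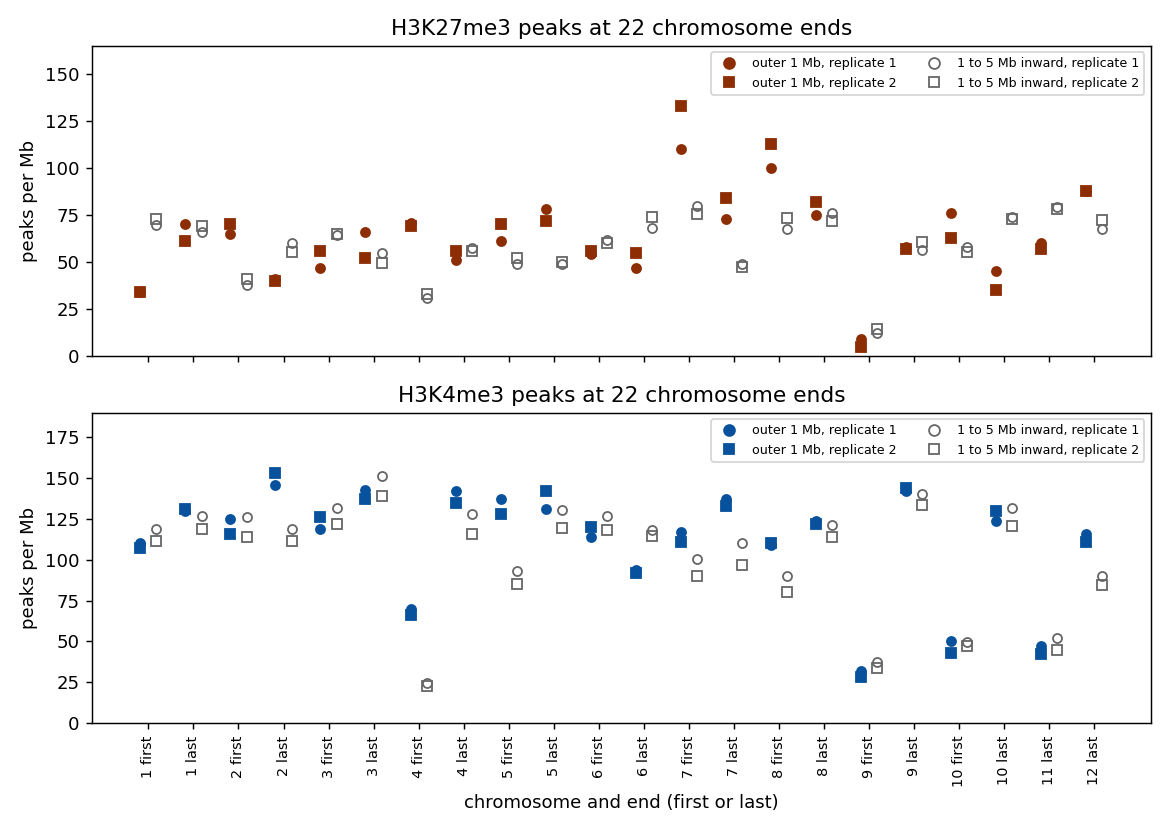
Peaks per Mb in the outer 1 Mb (filled symbols) and in the 1 to 5 Mb inward (open symbols) of each of the 22 ends, for H3K27me3 (top) and H3K4me3 (bottom). Circles are replicate 1 and squares replicate 2. The first end of chromosome 7 is the highest for H3K27me3, at 110 and 133 peaks, and the first end of chromosome 9 is the lowest for both marks.

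H3K27me3 was densest at the first ends of chromosomes 7 and 8. The first megabase of chromosome 7 held 110 and 133 H3K27me3 peaks, against 79.75 and 75.75 per Mb inward. That of chromosome 8 held 100 and 113, against 67.5 and 73.5 per Mb inward. The last megabase of chromosome 12 followed with 88 peaks in each library, against 67.5 and 72.25 per Mb inward. All 3 were also above their inward stretch for H3K4me3. Regions of H3K27me3, defined as the bases covered in both replicates, took up 16.0% of the outer megabase on chromosome 7 and 15.6% on chromosome 8, the highest shares of the 22 ends.

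The fewest H3K27me3 peaks lay at the first end of chromosome 9, with 9 and 5 (exact 95% Poisson intervals 4.12 to 17.1 and 1.62 to 11.7, counting error only). The first megabase of chromosome 1 held 34 in each library, against 69.75 and 73 per Mb inward, and the last of chromosome 10 held 45 and 35, against 73.75 and 72.75. H3K4me3 was near its inward level at both, with 110 and 107 peaks against 119 and 111.25 per Mb inward on chromosome 1, and 124 and 130 against 131.75 and 121 on chromosome 10. The first end of chromosome 9 was poor in both marks, with 32 and 28 H3K4me3 peaks, against 37.25 and 33.5 per Mb inward, and its outermost H3K4me3 peaks lay 145.1 and 152.0 kb from the start of the chromosome. No H3K27me3 peak was called in its outer 259.9 kb in either library.

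H3K4me3 was densest at the last ends of chromosomes 2, 9 and 3. The last megabase of chromosome 2 held 146 and 153 H3K4me3 peaks, against 119 and 111.5 per Mb inward, while its 41 and 40 H3K27me3 peaks were fewer than the 60 and 55.25 per Mb inward. It was the only one of the 22 ends with more H3K4me3 and less H3K27me3 than inward in all 4 libraries, and the last end of chromosome 3 was the only one with the opposite combination, with 143 and 137 H3K4me3 peaks against 151.5 and 139 inward. The lowest H3K4me3 counts after the first end of chromosome 9 were 47 and 42 at the last end of chromosome 11, and 50 and 43 at the first end of chromosome 10.

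These H3K4me3-poor ends of chromosomes 11 and 10 held 58.5 and 69.5 H3K27me3 peaks (means of 2 libraries), near the median over ends. At the first end of chromosome 10 there were 1.49 H3K27me3 peaks per H3K4me3 peak, the highest ratio, and at the last end of chromosome 11 there were 1.31. The first ends of chromosomes 7 and 4, at 1.07 and 1.03, were the other 2 of the 4 ends with a ratio above 1. The lowest ratio was 0.233 at the first end of chromosome 9, followed by 0.271 at the last end of chromosome 2. These ratios count broad peaks against narrow peaks and not bases. By bases, H3K27me3 regions covered more of the outer megabase than H3K4me3 regions, at 6.82% against 5.02% over all 22 ends. Across the 22 ends the numbers of the 2 marks had Pearson's r of 0.211 and Spearman's rho of −0.012. Without the first end of chromosome 9 they were −0.094 and −0.16. Between an end and its own inward stretch rho was 0.015 for H3K27me3 and 0.712 for H3K4me3, as a description over 22 points.

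**Figure D2:**
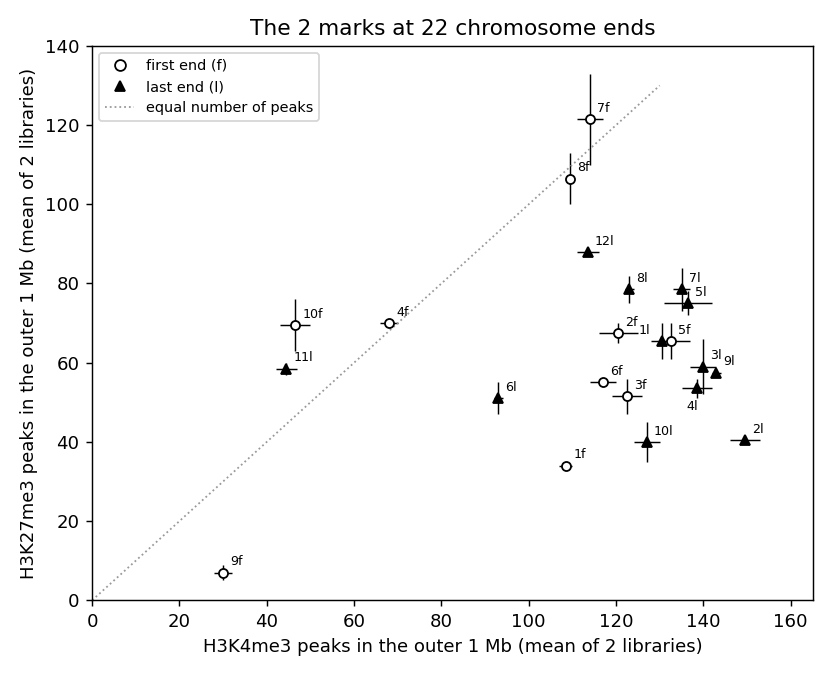
H3K27me3 peaks against H3K4me3 peaks in the outer 1 Mb, 1 point per end, named by chromosome and first (f, circles) or last (l, triangles) end. Points are means of 2 libraries and bars reach to the 2 replicate values. Ends 10f, 11l, 4f and 7f lie above the dotted line of equal numbers, and the rest lie below it.

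The first end of chromosome 4 had the strongest contrast with the sequence next to it. It held 71 and 69 H3K27me3 peaks, against 31 and 33 per Mb inward, and 70 and 66 H3K4me3 peaks, against 24.75 and 22.5 per Mb inward. These gave the highest log2 ratios of outer to inward density among the 22 ends, 1.13 for H3K27me3 and 1.53 for H3K4me3 (means of 2 libraries). In all, 7 ends were denser than inward in both marks and all 4 libraries, namely the first ends of chromosomes 4, 5, 7 and 8 and the last ends of chromosomes 5, 7 and 12. Another 4 were less dense in both, namely the first ends of chromosomes 1 and 9 and the last ends of chromosomes 6 and 11.

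Within the outer megabase H3K27me3 was low in the outermost 100 kb and highest at 200 to 400 kb, a pattern chosen after the values were seen. The outermost 100 kb held 43.2 and 41.8 H3K27me3 peaks per Mb over all ends. The bin at 200 to 300 kb held 86.8 and 95.5, and that at 300 to 400 kb 78.2 and 85.9. The outermost 100 kb was below the mean of the next 900 kb in both libraries at 16 of 22 ends and above it in both at 5. H3K4me3 showed less of this, with 105.0 and 106.4 peaks per Mb in the outermost 100 kb and its highest bin, 125.5 and 133.6 per Mb, at 100 to 200 kb. It was below the next 900 kb in both libraries at 10 ends and above it at 7.

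At first ends H3K27me3 had 2.5 and 2.7 peaks in the outermost 100 kb, against 6.69 and 7.13 per 100 kb in the next 900 kb (ratios 0.374 and 0.379). At the last ends it had 5.83 and 5.42, against 6.31 and 6.24 (ratios 0.924 and 0.868). First and last ends are not measured alike, because a last end is set by a peak, which was an H3K4me3 peak at 11 of 12 last ends, and first ends start at base 1. With first ends counted from their first peak the H3K27me3 ratios were 0.648 and 0.680, and those of H3K4me3 were 0.930 and 0.942, against 0.743 and 0.756 from base 1. At the first ends the outermost peak lay at a median of 56.9 and 71.3 kb for H3K27me3 and 15.1 and 22.9 kb for H3K4me3. An H3K4me3 peak was the outermost at 17 of 22 ends. H3K4me3 peaks were also more numerous, at 231 and 234 in the outermost 100 kb of all ends against 95 and 92 of H3K27me3. Whether the count of ends goes beyond these numbers was not tested.

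The rise at 200 to 400 kb came from some of the ends. At 12 of 22 ends both H3K27me3 libraries had more peaks there than in the rest of the megabase for the same length. The 5 ends with most held 46.7% of the 452.5 kb of H3K27me3 regions at that distance, and no such share is given for other distances. They were led by the last end of chromosome 6 with 58.8 kb and the first end of chromosome 7 with 48.2 kb. The first end of chromosome 7 also had the highest coverage over the whole megabase, at 16.0%. The last end of chromosome 6 had 26 and 33 H3K27me3 peaks in these 200 kb, against 5.25 and 5.5 per 200 kb in the rest of its megabase. It also held a stretch of 220.3 kb with no H3K27me3 peak in either library, on chromosome 6 from 30537941 to 30758238. An empty stretch of over 100 kb was present at 17 of 22 ends for H3K27me3, against 4 of 22 for H3K4me3. H3K27me3 also had fewer peaks, at 62.7 and 64.0 per Mb against 111.8 and 110.3. Its peaks nevertheless covered more of the outer megabase, at 9.31% and 7.90% against 7.12% and 5.75%. No count of such stretches inward is given, and stretches were cut at the limits of the megabase. The longest for H3K4me3 measured 243.4 kb, on chromosome 11 from 28240344 to 28483727.

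**Figure D3:**
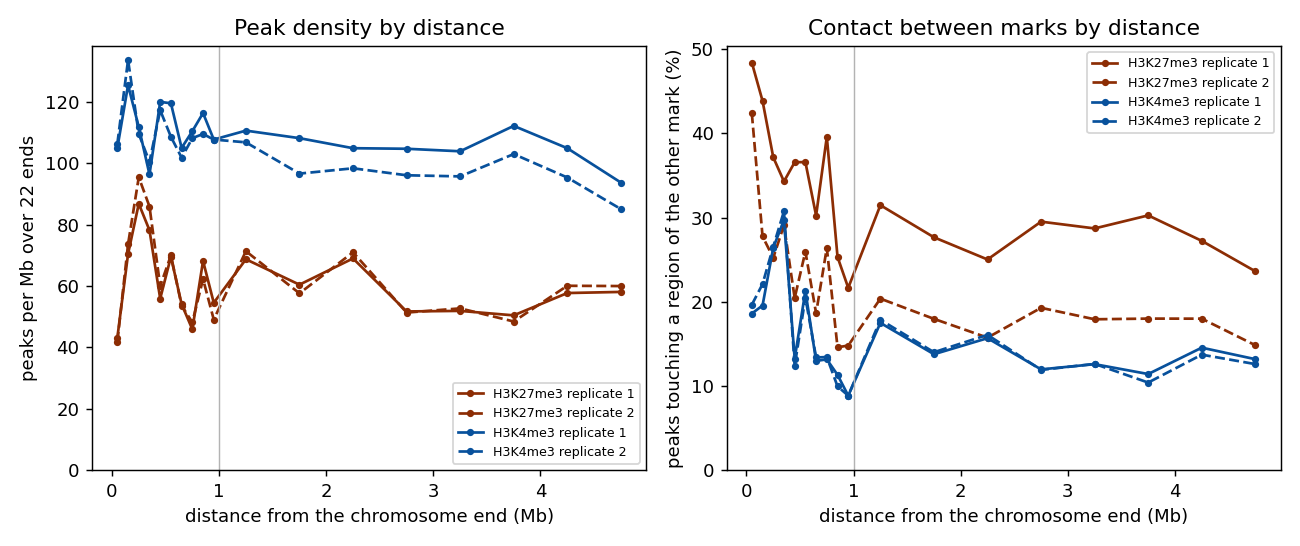
Left, peaks per Mb by distance from the chromosome end, summed over 22 ends in bins of 100 kb up to 1 Mb (grey line) and of 500 kb beyond. Right, the percentage of peaks in each bin that touch a region of the other mark. Solid lines are replicate 1 and dashed lines replicate 2. H3K27me3 starts at 43.2 and 41.8 peaks per Mb and reaches 86.8 and 95.5 at 200 to 300 kb, and its contact with H3K4me3 is highest in the outermost bin, at 48.4% and 42.4%.

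H3K27me3 peaks were a little wider at the ends. Their median width was 841 and 679 bp in the outer megabase, 770 and 641 bp at 1 to 5 Mb inward and 705.5 and 603 bp beyond 5 Mb. Both libraries were wider at the ends by a mean of 1.08-fold (log2 0.11 ± 0.031, SD, n = 2), and the log2 ratio was 0.23 for the outer 0.5 Mb, 0.033 against 1 to 3 Mb and −0.013 among peaks whose −log10 q reached 5. The H3K4me3 replicates moved in opposite directions, with medians of 559 and 452 bp in the outer megabase, against 569 and 431 bp inward. Very long H3K27me3 peaks were about as frequent at the ends as inward. Those of at least 5000 bp made up 4.42% and 3.13% of peaks in the outer megabase, against 4.58% and 3.08% inward. The longest measured 22503 and 12352 bp among 1379 and 1408 peaks, against 28274 and 26009 bp among 5149 and 5199 inward. A larger set tends to hold a longer maximum, so these maxima are no comparison of width.

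H3K27me3 regions in the outer megabase numbered 1261, with a median of 683 bp, and covered 6.82% of it, against 633 bp and 5.77% inward. The longest was on chromosome 8 from 766754 to 778891 (12138 bp). The second lay on chromosome 7, at 726657 to 738626 (11970 bp), and the third again on chromosome 8, at 422371 to 433689 (11319 bp). Chromosome 8 also held the next, at 27448819 to 27459775 (10957 bp), and chromosome 5 the one after, at 653986 to 663976 (9991 bp). So 3 of the 5 lay on chromosome 8, 2 at its first end and 1 at its last. By fold enrichment over the caller's background, as the authors gave it, the peaks of these 5 ranked between the 91.0th and 98.7th percentile of their lists. The region from 422371 touched no H3K4me3 region, while the one from 27448819 carried H3K4me3 on 10.9% of its bases.

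H3K4me3 regions numbered 2227 in the outer megabase, with a median of 437 bp and 5.02% of the bases, against 419 bp and 4.31% inward. The 5 widest all lay at last ends. The widest was on chromosome 10 from 22857294 to 22859281 (1988 bp), whose fold ranked at 93.4% and 83.7% of the lists of replicates 1 and 2. Next came one of 1929 bp on chromosome 12 (27461858 to 27463786) and one of 1817 bp on chromosome 11 (28887627 to 28889443). Another of 1783 bp on chromosome 10 (23062608 to 23064390) and one of 1748 bp on chromosome 4 (35398971 to 35400718) completed the 5. Width did not always go with high fold, since the 3 that followed the widest ranked between the 26.6th and 51.5th percentile. None of the 5 touched an H3K27me3 region, although those 3 overlapped a peak of H3K27me3 replicate 1.

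The share of peaks found again in the other replicate was slightly higher at the ends for H3K27me3, and for H3K4me3 its direction in replicate 2 depended on the overlap asked for. For H3K27me3 it was 72.3% (95% Wilson interval 69.9 to 74.6%) and 83.7% (81.7 to 85.6%) in the outer megabase, against 69.5% and 80.9% inward and 67.2% and 79.8% in the whole lists. Both libraries were higher at the ends, by 2.83 and 2.80 percentage points. For H3K4me3 it was 84.4% (82.9 to 85.8%) and 91.1% (89.9 to 92.2%) in the outer megabase, against 79.8% and 93.1% inward and 79.4% and 93.3% in the whole lists. Replicate 1 was thus 4.65 points higher at the ends and replicate 2 was 2.02 points lower (exact permutation p = 1, two-sided, n = 2). Intervals here cover only counting error, and peaks next to each other are not independent. The mean H3K27me3 excess was 1.67 points against 1 to 3 Mb, 4.88 against the rest of the chromosome and 5.04 for the outer 0.5 Mb.

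With 1 bp of overlap the H3K4me3 replicates moved in opposite directions at most ends, and with 50% they did not. With 1 bp the shared percentage was above the inward one at 20 of 22 ends in replicate 1 and at 3 of 22 in replicate 2. When a peak and its partner each had to overlap by 50%, it was higher at 19 of 22 ends in replicate 1 and at 14 of 22 in replicate 2. The values were then 72.1% and 73.0% in the outer megabase, against 65.2% and 70.7% inward, so that both replicates were higher at the ends, by 6.89 and 2.29 points. The number of replicate 1 peaks per replicate 2 peak also differed, at 1.01 in the outer megabase, 1.09 inward and 1.11 beyond 5 Mb, and was below the inward value at 20 of 22 ends. Its part in the shared percentages was not tested. The median percentile of fold in H3K4me3 replicate 1 was 45.1 at the ends, against 50.8 inward, and that of replicate 2 was 50.2, against 50.6.

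Sharing varied between ends, by an SD of 6.2 and 6.8 points in the H3K27me3 libraries and 5.3 and 2.6 points in the H3K4me3 libraries. Whether this exceeds the counting error of single ends was not tested, so the order of ends below is a description. For H3K27me3 the mean of the 2 shared percentages was highest at the first end of chromosome 8 (85.9%), the last of chromosome 12 (82.4%) and the first of chromosome 6 (81.7%). It was lowest at the first ends of chromosomes 1 (66.2%) and 10 (69.8%) and the last of chromosome 4 (72.8%). For H3K4me3 the first end of chromosome 9 led with 93.8% on 32 and 28 peaks, followed by the first of chromosome 8 (91.3%) and the last of chromosome 10 (90.2%). The lowest H3K4me3 values were 79.3% at the first end of chromosome 10, 82.2% at the first of chromosome 7 and 83.5% at the last of chromosome 11. The first end of chromosome 8 was thus high, and that of chromosome 10 low, in the means of both marks. For H3K4me3 the low mean on chromosome 10 came from replicate 1, at 68.0%. Replicate 2 had 90.7% there, near its mean over ends of 91.4%.

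**Figure D4:**
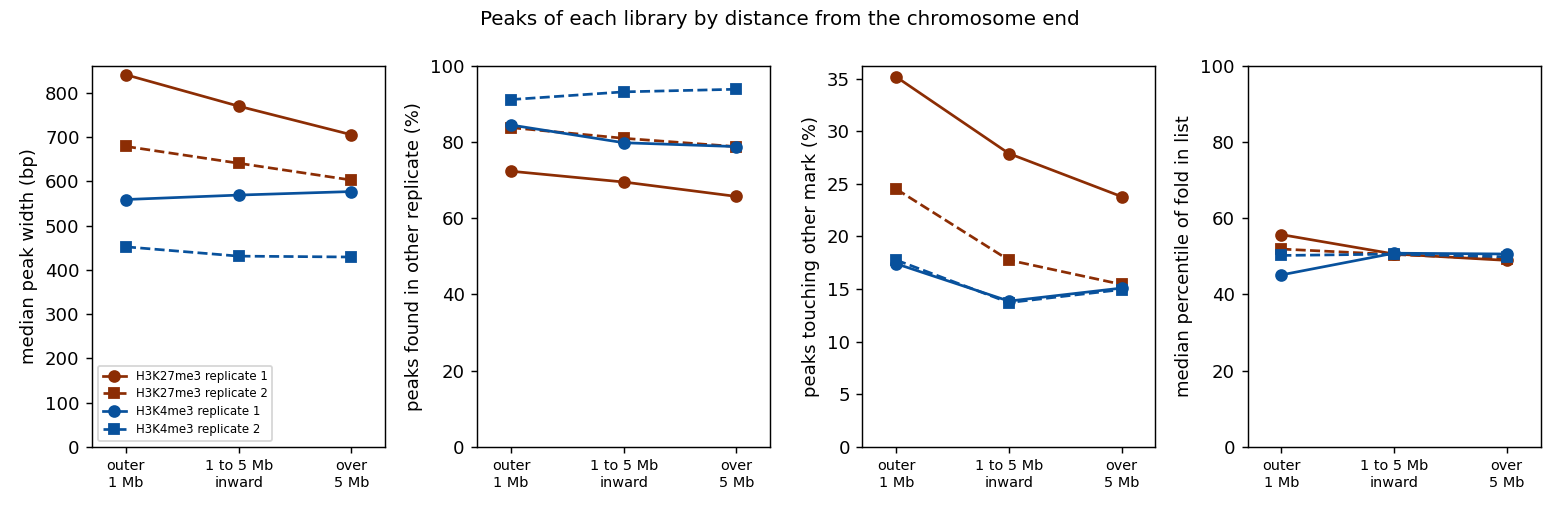
Median width, percentage found in the other replicate, percentage touching a region of the other mark, and median percentile of fold within the list, for each of the 4 libraries in the outer 1 Mb, at 1 to 5 Mb inward and over 5 Mb from both ends. Contact with the other mark is higher in the outer 1 Mb than at 1 to 5 Mb in all 4 libraries.

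Peaks of either mark met the other mark more often at the ends. Of the H3K27me3 peaks in the outer megabase, 35.2% (32.7 to 37.7%) and 24.5% (22.3 to 26.8%) touched an H3K4me3 region by at least 1 bp, against 27.9% (26.7 to 29.1%) and 17.8% (16.7 to 18.8%) inward and 25.5% and 16.7% in the whole lists. The excess over the inward stretch was 7.28 and 6.75 percentage points. Of the H3K4me3 peaks, 17.4% (16.0 to 19.0%) and 17.8% (16.3 to 19.3%) touched an H3K27me3 region, against 13.9% (13.2 to 14.6%) and 13.7% (13.0 to 14.5%) inward and 14.9% and 14.8% in the whole lists. The excess here was 3.55 and 4.05 points. All 4 libraries were higher at the ends. When 50% of a peak had to lie in the other mark's region the mean excess was 2.82 points for H3K27me3 and 4.26 for H3K4me3, and among peaks whose −log10 q reached 5 it was 9.18 and 1.57 points.

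This was a property of most ends. The percentage of H3K27me3 peaks touching H3K4me3 was above the inward one in both libraries at 18 of 22 ends and below it in both at none. For H3K4me3 peaks it was higher in both libraries at 15 ends and lower in both at 5, the first ends of chromosomes 1, 3 and 9 and the last ends of chromosomes 2 and 10. The last end of chromosome 9 was highest for H3K27me3, with 51.7% and 36.8% of its peaks touching H3K4me3, against 26.7% and 16.1% inward. For H3K4me3 the first end of chromosome 10 was highest, with 34.0% and 37.2%, against 22.2% and 25% inward. The first end of chromosome 7 followed with 30.8% and 34.2%, against 18.4% and 17.3% inward.

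Inside the outer megabase contact was higher towards the end of the chromosome. The outermost 500 kb had 39.3% and 27.9% of H3K27me3 peaks touching H3K4me3, against 30.5% and 20.2% in the next 500 kb. H3K4me3 peaks showed the same order, with 21.2% and 22.04% in the outermost 500 kb, against 13.7% and 13.2% in the next. The highest value for H3K27me3 peaks was in the outermost 100 kb, at 48.4% and 42.4% of 95 and 92 peaks, where the mark was sparse. For H3K4me3 peaks it was at 300 to 400 kb, at 29.7% and 30.8%, next to the bin in which H3K27me3 was densest. At 900 to 1000 kb the H3K4me3 values were both 8.86%, below the inward mean, and at 1 to 1.5 Mb they were 17.5% and 17.9%, as high as in the outer megabase as a whole. H3K27me3 peaks at 1 to 1.5 Mb stood at 31.5% and 20.4%. Contact thus did not decline evenly with distance.

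Among H3K27me3 regions of 1000 to 5000 bp, contact with H3K4me3 was more frequent in the outer megabase than inward. Of the 255 regions of 1000 to 2000 bp in the outer megabase, 38.04% touched H3K4me3 (95% Wilson interval 32.3 to 44.1%), against 24.2% (21.4 to 27.2%) of 824 inward. Of the 162 regions of 2000 to 5000 bp, 46.3% did (38.8 to 54.0%), against 29.2% (25.5 to 33.2%) of 527 inward. Below 500 bp the values were alike, at 13.0% of 470 regions and 12.6% of 1806 inward. The intervals of outer and inward regions also overlapped at 500 to 1000 bp (26.7% and 22.8%) and at 5000 bp and over (54.1% of 37 and 44.8% of 125). Intervals cover only counting error, and regions next to each other are not independent, so intervals that lie apart are no test. Regions join both replicates and have no values per library. Neither the difference between outer and inward regions nor that between length classes was tested.

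**Figure D5:**
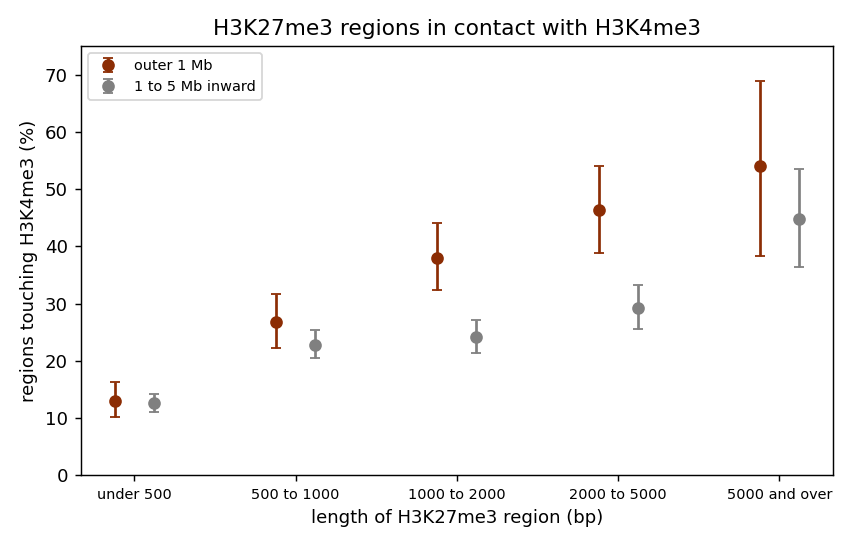
Percentage of H3K27me3 regions that touch an H3K4me3 region, by length of the H3K27me3 region, in the outer 1 Mb (brown) and at 1 to 5 Mb inward (grey). Bars are 95% Wilson intervals, which cover only counting error. Outer regions of 1000 to 2000 bp and 2000 to 5000 bp stand at 38.04% and 46.3%, above inward regions at 24.2% and 29.2%.

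Bases with both marks covered 0.727% of the outer megabase, against 0.414% inward and 0.298% beyond 5 Mb. At 19 of 22 ends this coverage was above that of the inward stretch, with a median over ends of 0.704%, against 0.436% inward. Each mark alone also covered more of the ends, and denser marks meet more often by position alone. Divided by the product of the coverages of both marks, the shared coverage was 2.12 in the outer megabase, 1.66 at 1 to 5 Mb and 2.63 beyond 5 Mb, where 1 would stand for independent positions. For the 4 pairings of single libraries it was 1.86 to 2.51 in the outer megabase, 1.48 to 2.34 inward and 2.22 to 3.50 beyond 5 Mb. The ends thus exceeded their inward stretch in every pairing (log2 0.10 to 0.34), while the log2 value against the rest of the chromosome was −0.18. A pooled ratio also rises where both marks share poor stretches, and that part was not tested.

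Stretches with both marks were 386 in number in the outer megabase, 17.5 per Mb against 11.6 per Mb inward, with medians of 347.5 and 306 bp. The longest lay on chromosome 2 from 35848035 to 35849628 (1594 bp), 83.4 kb from the end. The last 100 kb of that chromosome held 7 and 8 of the 41 and 40 H3K27me3 peaks of its last megabase. The second lay on chromosome 12 at 27359781 to 27361222 (1442 bp), and the third on chromosome 5 at 29679697 to 29681130 (1434 bp). Shorter ones were on chromosome 4 at 552234 to 553481 (1248 bp) and on chromosome 8 at 27458581 to 27459775 (1195 bp). The one on chromosome 8 forms the edge, towards the chromosome end, of the long H3K27me3 region that starts at 27448819. In the 3 longest, H3K27me3 ranked high in replicate 1 (77.7th to 96.4th percentile of fold) and lower in replicate 2 (12.3rd to 42.9th). The other 2 named ranked high in both replicates, at 99.8 and 83.6 on chromosome 4 and 97.9 and 98.6 on chromosome 8.

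The H3K27me3 peaks found in 1 replicate only differed in contact at the ends as they did inward. Of the 382 unshared peaks of replicate 1 in the outer megabase, 38.2% touched H3K4me3, against 33.1% of 1572 inward. Of the 229 unshared peaks of replicate 2, 2.62% did, against 1.92% of 991 inward. Shared peaks were higher at the ends in both lists, at 34.0% and 28.8%, against 25.6% and 21.5% inward. The excess of contact at the ends was therefore present in the peaks that both H3K27me3 replicates found.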

How the data were processed

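The authors deposited 1 peak list per library, narrow peaks with summits for H3K4me3 and broad peaks for H3K27me3. Tools in the submitters' processing notes are MACS2, deepTools, SAMtools, Picard, Bowtie2 and fastp; no version, genome build, control, threshold or pooling step is given in the sources used here. Peak names carry the words merge, uniq or subsample in 3 of the 4 lists, so libraries may have been handled differently, which cannot be told apart from replicate differences. Fold enrichment, a ratio to the background that the peak caller estimated, was deposited with each peak and entered only as a rank within its list. Each peak also has a deposited −log10 p, not used, and a deposited −log10 q, used as a threshold in 1 alternative. The deposited score is derived from the −log10 q and was not used.

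Peaks were placed by midpoint with Python 3.11.15, numpy 2.4.6 and scipy 1.17.1, and figures drawn with matplotlib 3.10.9. A chromosome was taken to end at the largest peak end over the 4 lists. Overlap meant at least 1 bp, and a region of a mark means bases that both of its replicates cover. A first end may hold unassembled or unmappable sequence, and sequence beyond the last peak is not counted, which was not tested. Libraries were the units of the exact permutation tests, since peaks and ends are not replicates; other comparisons are descriptions. The code was tested on simulated lists, and outer against inward values came back as follows (mean ± SD, 5 simulations). Planted log2 density ratios of 0.61 for H3K27me3 and −0.30 for H3K4me3 came back as 0.58 ± 0.049 and −0.28 ± 0.11. Planted log2 width ratios of 0.40 and 0 came back as 0.40 ± 0.010 and 0.0054 ± 0.019. Planted sharing differences of 10 and 0 points came back as 9.87 ± 1.55 and −1.42 ± 1.78. The spread for H3K4me3 density and sharing was near the size of the values reported. However, the simulated lists were sparser and less shared than the real ones, so their spread is not that of the real values. No contact between marks was planted.

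The gene table used here is on another assembly: 19.9% of H3K4me3 replicate 1 summits lay within 500 bp of a gene boundary, against 19.6 to 20.5% after fixed shifts, so no gene was named. The ends and regions named are the 3 ends with most and fewest peaks and highest and lowest sharing, those with extreme ratios of the marks, and the 5 longest regions. The ends, lists and measures were chosen with earlier results of these data known. Alternatives were other segment sizes, a −log10 q of at least 5, 50% overlap, other origins and weights, summits, all 24 ends, each library left out and a replicate block.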

Additional observations from a re-analysis of the deposited data

Results flagged for a closer look

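The rank of peaks by fold moved in opposite directions for the 2 marks. The median percentile of fold in the outer megabase minus that at 1 to 5 Mb inward was 3.26 points for H3K27me3 (5.09 and 1.43 in the 2 libraries) and −3.03 points for H3K4me3 (−5.69 and −0.36). Both libraries of H3K27me3 were higher at the ends and both of H3K4me3 lower, and the difference between the marks was not tested. The libraries did not all keep to this under 3 other choices of segment. Against 1 to 3 Mb inward they were 3.19 and −0.51 points for H3K27me3 and −4.68 and 0 for H3K4me3. H3K4me3 replicate 2 was 0.26 for the outer 0.5 Mb and 0.19 against the rest of the chromosome. Percentiles are ranks within lists of broad peaks for H3K27me3 and narrow peaks for H3K4me3, and the H3K27me3 value was −0.55 when only peaks whose −log10 q reached 5 were kept.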

How the results depend on the processing

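Of 164 alternatives over 14 results, 114 kept the sign and stayed within 1.5 times the reported value, 42 kept the sign and lay beyond 1.5 times, and 8 changed sign. Not all alternatives are separate checks, so the 114 are no measure of robustness. With 1 library left out, the density, width and percentile of fold of its mark are those already given for the other library. The difference between marks in outer over inward density changed sign, to 0.25 for peaks whose −log10 q reached 5, to 0.079 for an outer 0.5 Mb and to 0.050 for an outer 2 Mb, and ran from −0.076 to 0.023 with a library left out, above 0 only without H3K4me3 replicate 2. Against the rest of the chromosome it was −0.29. The log2 width ratio of H3K4me3 ran from −0.026 (without replicate 2) to 0.069 (without replicate 1), and that of H3K27me3 was −0.013 with the q threshold. The H3K27me3 percentile of fold became −0.55 points with that threshold. Both-mark coverage over the product of coverages, outer over inward (log2 0.22), was 0.37 for an outer 0.5 Mb and −0.18 against the rest of the chromosome. Without H3K27me3 replicate 2 it was 0.12. The cause was not tested. A block by replicate number leaves the difference between marks at −0.027 by construction and changes only the test (exact permutation p = 1). The labels do not say that a number pairs libraries of different marks. Density remained higher at the ends under all alternatives run (log2 0.016 to 0.40 for H3K27me3 and 0.085 to 0.57 for H3K4me3), as did contact between marks (2.82 to 10.8 and 1.57 to 7.81 points). Placing H3K4me3 peaks by summit moved none of its 3 results. Leaving out each end in turn, or the first end of chromosome 9 alone, both chosen after seeing the data, changed the sign only of the difference between marks (3 of 22 ends). Sharing differences ran from 1.67 to 5.04 points for H3K27me3 and from 0.52 to 4.59 for H3K4me3, the highest with 50% overlap, where both H3K4me3 libraries were higher. Sharing cannot be computed with a library left out. Depth in reads is unknown, so that a missing peak does not show a missing mark.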
